A study of Ovis aries with 3 samples.

Results

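Cardiomyocytes are the contracting muscle cells of the heart, and 207 of the 31576 kept cells of 3 single-cell RNA libraries of whole sheep embryos were assigned to them. A kept cell had 200 to 6000 detected genes, 1000 to 30000 unique molecular identifiers (UMIs, each standing for 1 captured transcript) and at most 10% of its UMIs on mitochondrial genes. A kept cell counted as a cardiomyocyte when it held at least 3 UMIs of MYL7, the atrial regulatory myosin light chain that the early heart tube makes throughout, and at least 2 UMIs of TNNT2, cardiac troponin T. The rule found 80 of 9618 kept cells of the library called E19 HSTS (0.832%, 95% exact Clopper-Pearson interval 0.66 to 1.03%), 107 of 10629 of the library E19 HS (1.01%, 0.826 to 1.22%) and 20 of 11329 of the library E16 HS (0.177%, 0.108 to 0.273%). Below, 3 values given together follow this order of libraries.

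E19 HSTS came from the Hulunbuir short-tailed sheep at day 19, a breed carrying a loss-of-function allele of the T gene, and E19 HS and E16 HS came from Hu sheep, wild type at T, at day 19 and day 16. All embryos were taken whole, digested with collagenase, freed of red blood cells by lysis and run on the 10x Genomics 3′ platform. Each group was 1 library of 1 embryo by its label. The methods give 1 embryo for each day 19 group and 3 for E16 HS, and whether those were pooled in the library used here is not stated. No difference between groups therefore has a replicate check. Breed and T allele cannot be told apart, and neither can be told apart from library or embryo. Intervals printed here cover the counting error of UMIs or cells only, and no p-value is given.

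The heart is the first organ to work in a mammalian embryo. Its muscle cells build sarcomeres, in which thick filaments of myosin (heavy chains MYH6 and MYH7, light chains MYL2, MYL3, MYL4 and MYL7) pull on thin filaments of actin carrying tropomyosin and troponins, both anchored at the Z-disc. As the heart tube is divided into chambers, ventricular muscle takes on MYL2, MYL3 and MYH7, while the venous end and the atria keep MYH6 and the nuclear receptors NR2F1 and NR2F2.

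Since MYL7 and TNNT2 chose the cells, their levels describe the choice. MYL7 had medians of 181.5 UMIs per cardiomyocyte (range 7 to 520), 55 (3 to 628) and 18 (3 to 98). TNNT2 had medians of 39.5 UMIs (2 to 86), 13 (2 to 103) and 17 (2 to 47). At the edge of the rule, 1, 13 and 2 members had exactly 3 MYL7 or 2 TNNT2 UMIs, and 2, 3 and 1 kept cells missed the rule by 1 TNNT2 UMI. A larger set held TNNT2 without MYL7, with 62, 58 and 47 kept cells at 2 or more TNNT2 UMIs and no MYL7. With up to 2 MYL7 UMIs allowed, there were 64, 61 and 51 such cells. Of these, 17, 13 and 0 were skeletal myogenic cells, defined below, and 7, 5 and 6 held a UMI of MYH6. MYL7 was detected in 1.15%, 0.922% and 0.548% of the other kept cells, and in 1.36%, 1.27% and 0.190% of the erythroid cells, which should lack it and had a median depth of 17690, 17640 and 14060 UMIs.

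The cardiomyocytes summed to 1051754, 856598 and 139330 UMIs, so E16 HS levels carry the widest intervals and 1 cell supplied 15.3% of its UMIs. The median depth of a cardiomyocyte was 12550, 6572 and 5284 UMIs, against 8646, 6901 and 9049 in the other kept cells. The mitochondrial share differed more. Its median was 6.03%, 2.13% and 3.65%, with 2.6%, 2.73% and 2.51% in the other cells. In E19 HS the cardiomyocytes fell into 57 cells with at least 1% mitochondrial UMIs and 50 with less, and the latter had a median of 2454 UMIs against 10920. The E19 HSTS and E16 HS libraries held 6 and 3 such low cells. Among the other kept cells of E19 HS, 10.7% were below 1%.

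**Figure D1:**
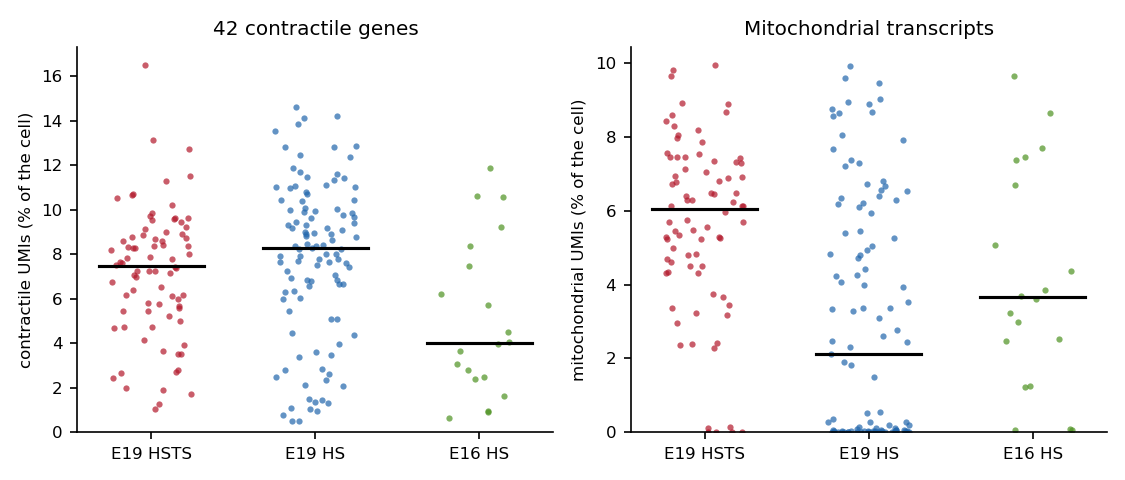
Share of each cardiomyocyte's UMIs on 42 contractile genes (left, percent) and on mitochondrial genes (right, percent), with a point per cell, a bar at the median and the libraries along the axis. Contractile medians were 7.47%, 8.31% and 4.02%, and 50 of 107 E19 HS cells lay below 1% on the mitochondrial axis.

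Markers of other cell types ranged from absent to above the level of the other cells. Myeloid markers were at 0 in the cardiomyocytes of every library, and 4 neural crest markers summed to 2.85, 0 and 0 UMIs of every 1000000 (written CPM below). The 8 erythroid markers summed to 272, 274 and 158 CPM, against 2050, 1214 and 1428 CPM in the other cells, with 2, 2 and 4 of the 8 at 0. Endothelial and endocardial markers, 12 genes, summed to 56.1, 77.1 and 79.0 CPM, against 84.5, 117 and 46.2 CPM. The 7 mesenchyme genes summed to 398, 407 and 2038 CPM against 584, 730 and 2621 CPM, the 6 genes of extraembryonic endoderm to 188, 586 and 215 CPM against 509, 599 and 584 CPM, and the 7 of gut epithelium to 396, 602 and 1356 CPM against 502, 577 and 1915 CPM. At least 2 UMIs of each gene of a marker pair of another type were held by 6, 5 and 0 members, of which 6 and 2 carried the erythroid pair AHSP and BLVRB. Between 38 and 42 barcodes recurred between any pair of libraries, and no cardiomyocyte barcode of a library was a cardiomyocyte barcode in another.

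Genes of the contractile apparatus took a far larger share of UMIs in these cells than in the other cells. The 42 genes of the thick filament, thin filament and Z-disc lists took a median of 7.47% of a cardiomyocyte's UMIs (range 1.04 to 16.5%), 8.31% (0.501 to 14.6%) and 4.02% (0.642 to 11.9%). Without the rule genes MYL7 and TNNT2 the medians were 5.59%, 6.58% and 3.44%, and the same 40 genes had medians of 0.0261%, 0.0328% and 0.0469% in the other cells. Skeletal myogenic cells were chosen among the other kept cells by holding at least 2 of 7 skeletal muscle genes. They reached 0.699% in 40 E19 HSTS cells and 1.13% in 24 E19 HS cells. They shared ACTC1 with the cardiomyocytes, at 4665 and 3927 CPM in the skeletal cells. MYL7 was at 0 UMIs in them in both day 19 libraries. Since cells passing the cardiomyocyte rule were left out beforehand, low MYL7 is in part fixed by the choice. The embryonic skeletal heavy chain MYH3 stood at 367 and 472 CPM in the skeletal cells against 9.51 and 5.84 CPM in the cardiomyocytes.

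The thick filament was led by light chains. MYL4, the embryonic atrial essential light chain, was detected in every cardiomyocyte, at 8873, 9360 and 6237 CPM. MYL3, the ventricular essential light chain, stood at 6753, 8136 and 2799 CPM. MYL2, the ventricular regulatory light chain, stood at 2432, 2254 and 309 CPM, and the slow heavy chain MYH7 at 4365, 4116 and 675 CPM. Both were lower at day 16 than in either day 19 library. The fast cardiac heavy chain MYH6 ran the other way, at 1305, 1240 and 4952 CPM.

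Thin filament genes stood closer between the days. Cardiac actin ACTC1 stood at 9608, 10940 and 6359 CPM, troponin C (TNNC1) at 6906, 7878 and 4773 CPM, and tropomyosin TPM1 at 5254, 5842 and 4034 CPM. The slow skeletal troponin I gene TNNI1, which the embryonic heart uses, was at 1451, 1506 and 1048 CPM, while the adult cardiac form TNNI3 was at 1904, 1906 and 632 CPM. TNNI3 was not limited to cardiomyocytes: it was detected in 31.1%, 27.2% and 30.2% of the other cells, against 9.89%, 5.80% and 9.67% of erythroid cells. With every cell thinned to 3000 UMIs, those shares were 15.4%, 13.9% and 13.8% of the other cells and 82.4%, 81.3% and 56.2% of the cardiomyocytes. At the Z-disc, CSRP3 (muscle LIM protein) stood at 626, 504 and 230 CPM, and the chaperone CRYAB at 399, 615 and 93.3 CPM.

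**Figure D2:**
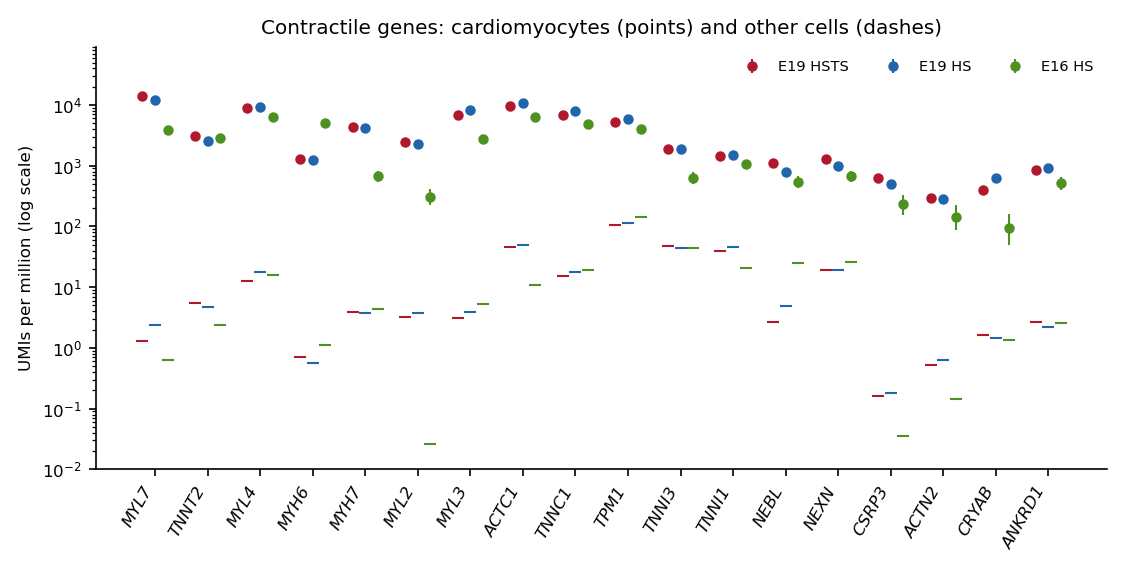
Levels of 18 contractile genes in CPM (log axis) for the summed cardiomyocytes of each library (points, bars are 95% Poisson intervals) and for the other kept cells of the same library (dashes). MYH6 was highest in E16 HS at 4952, while MYL2 and MYH7 were lowest there at 309 and 675.

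Set against the other kept cells of the same library, genes were called when they differed at least 2-fold and their higher level was worth at least 50 UMIs in the smaller sum. MYL7 and TNNT2 were left out of these counts, and since the choice of cells fixes the contrast, the counts are a description. Of 2076 E19 HSTS genes 385 were higher (18.5%) and 121 lower (5.83%). Of 1760 E19 HS genes 249 were higher (14.1%) and 107 lower (6.08%), and of 421 E16 HS genes 43 were higher (10.2%) and 20 lower (4.75%). In all 3 libraries 33 of 419 genes were higher (7.88%) and 12 lower (2.86%), and without the E16 HS library the counts were 229 and 74. Ranked by their lowest ratio in any library, among genes with 50 UMIs in the cardiomyocytes of each, the first were MYH6, at 1810-, 2220- and 4370-fold, MYL3 at 2190-, 2090- and 538-fold, and MYL4 at 692-, 523- and 396-fold. MYL2, short of 50 UMIs in E16 HS, was not ranked. TNNC1, ACTC1, the stretch-responsive nuclear protein gene ANKRD1, and MYH7 followed, the last at 1110-, 1080- and 153-fold.

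Genes of smooth muscle formed a second group among these. Calponin CNN1 was 113-, 96.4- and 62.2-fold over the other cells, smooth muscle actin ACTA2 69.8-, 57.3- and 45.9-fold, and transgelin TAGLN 32.4-, 24.3- and 11.7-fold. Early heart muscle is known to make these as well. Outside the cytoskeleton the leading genes included the heart and muscle ADP/ATP carrier SLC25A4 (32.4-, 29.3- and 8.99-fold), the mitochondrial calcium uniporter subunit MCUB (8.70-, 6.52- and 4.64-fold), the small heat shock protein HSPB1 (12.6-, 11.4- and 4.61-fold) and BAMBI, a decoy receptor that damps TGF-beta and BMP signals (6.95-, 7.10- and 9.16-fold). Among those lower in all 3 libraries were vimentin (VIM, 0.148, 0.193 and 0.482 of the level in other cells), the retinoic acid binding protein gene CRABP1 (0.0897, 0.0228 and 0.0382), decorin (DCN, 0.194, 0.0721 and 0.495) and the erythroid chaperone AHSP (0.0853, 0.116 and 0.0375), which were picked from the 12 after their values were seen.

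Transcription factors of the heart were sparse in these cells. NKX2-5, the earliest cardiac homeobox gene, was detected in 3 of 80 cells (3.75%, 0.78 to 10.6%), 6 of 107 (5.61%, 2.09 to 11.8%) and 0 of 20 (0 to 16.8%). Its share among the other cells was 0.021%, 0.019% and 0.0442%, and it was at 0% in erythroid cells. HAND2, a basic helix-loop-helix factor of the heart and limb, was detected in 48.8%, 29.0% and 45.0% of cardiomyocytes, at 64.7, 63.0 and 136 CPM, with 5.89%, 5.15% and 14.3% of the other cells and 0.543%, 0.990% and 3.1% of erythroid cells. Thinned to 3000 UMIs, HAND2 was detected in 12 of 74, 15 of 75 and 3 of 16 cardiomyocytes. TBX5, a T-box factor that marks the posterior heart, was at 25.7, 12.8 and 35.9 CPM, TBX20 at 32.3, 14.0 and 35.9 CPM, GATA6 at 30.4, 28.0 and 64.6 CPM and MEF2C at 40.9, 33.9 and 50.2 CPM. Of the 20 factors with a row in the tables, 0, 1 and 5 were at 0 UMIs.

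Genes of calcium handling and excitation were likewise uneven. The ryanodine receptor RYR2, which releases calcium from internal stores, was at 173, 151 and 215 CPM, and the calcium pump ATP2A2 that refills them at 141, 89.9 and 266 CPM. Triadin (TRDN) was at 172, 126 and 64.6 CPM and the sodium-calcium exchanger SLC8A1 at 143, 85.2 and 71.8 CPM. Several genes that are abundant in later heart muscle gave next to no UMIs: NPPA (atrial natriuretic peptide) and SLN (sarcolipin) were at 0 in all deposited barcodes of the 3 libraries, and PLN (phospholamban) had 0, 4 and 0 UMIs. Whether the gene models used by the authors hold the 3′ ends of these genes was not tested. Haemoglobin HBB had 8, 9 and 43 UMIs in the whole libraries, and why it was low was not tested either.

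Summed energy genes of the cardiomyocytes stood above those of the other cells in every library. The 36 genes of oxidative phosphorylation summed to 30540, 32370 and 20470 CPM, against 11040, 12530 and 14240 CPM in the other cells. The 17 glycolysis genes summed to 4508, 8233 and 8103 CPM, against 1168, 3302 and 4080 CPM. The lower E19 HSTS sum goes with GAPDH, which had 13, 2869 and 310 UMIs in the cardiomyocytes, and stood at 4.49, 1459 and 1313 CPM in the other cells. COX6A2, the heart and muscle form of a cytochrome c oxidase subunit, stood at 952, 807 and 172 CPM. Cell cycle genes were present: TOP2A, which cycling cells make, was at 378, 356 and 323 CPM and the 21 genes of the list summed to 2564, 2552 and 2211 CPM. In the other cells they summed to 2160, 2107 and 2496 CPM, and the cyclin D2 gene CCND2 alone gave 720, 674 and 459 CPM in the cardiomyocytes. The sum also counts CDKN1C, a cyclin-dependent kinase inhibitor gene, at 685 CPM in E19 HS cardiomyocytes. Without the cell holding most of it, CDKN1C stood at 677 CPM in E19 HSTS and 717 CPM in E16 HS, so the sum does not measure cycling alone.

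The cardiomyocytes did not form a uniform set, and were parted by their MYL2 count for a closer description. At least 3 MYL2 UMIs were held by 50 of 80, 74 of 107 and 3 of 20 cardiomyocytes, and no MYL2 by 24, 24 and 16. In cells thinned to 3000 UMIs MYL2 was detected in 67.6%, 65.3% and 18.8%, and unthinned in 56 of 80, 83 of 107 and 4 of 20. Among erythroid cells its unthinned shares were 0.582%, 0.424% and 0%.

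Other contractile genes differed along with MYL2. MYH7 stood at 5927 CPM in E19 HSTS cells with at least 3 MYL2 UMIs and at 51.5 CPM in those with none, and at 5945 and 454 CPM in E19 HS. MYL3 stood at 8299 and 1870 CPM in E19 HSTS and at 10010 and 4051 CPM in E19 HS, and TNNI3 at 2411 and 416 CPM and at 2517 and 590 CPM. MYH6 was opposite, at 612 and 3556 CPM in E19 HSTS and 844 and 2477 CPM in E19 HS. Of the rule genes, TNNT2 stood at 2849 and 3641 CPM in E19 HSTS and at 2665 and 2412 CPM in E19 HS, and MYL7 at 13690 and 15400 CPM and at 12910 and 7178 CPM.

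The nuclear receptors NR2F1 and NR2F2 were found mostly in cells without MYL2. NR2F1 was detected in 2 of 50 E19 HSTS cells with at least 3 MYL2 UMIs and in 15 of 24 without, and in 0 of 74 and 10 of 24 in E19 HS. NR2F2 was detected in 6 of 50 and 16 of 24 cells in E19 HSTS and in 1 of 74 and 7 of 24 in E19 HS. The calcium channel gene CACNA1D, used by pacemaker and atrial cells, was detected in 0 of 50 and 6 of 24 E19 HSTS cells and in 0 of 74 and 3 of 24 E19 HS cells. TBX5, listed with the atrial and inflow genes, was not confined to cells without MYL2. It was detected in 15 of 50 and 7 of 24 E19 HSTS cells and in 8 of 74 and 1 of 24 E19 HS cells. The pacemaker channel gene HCN4 was detected in 4 of 50 and 2 of 24 E19 HSTS cells and in 3 of 74 and 1 of 24 E19 HS cells, and the conduction system factor TBX3 in 6 of 50 and 1 of 24 and in 1 of 74 and 1 of 24. HAND1, a left ventricular factor, had the reverse distribution, in 12 of 50 and 0 of 24 E19 HSTS cells and in 10 of 74 and 0 of 24 E19 HS cells. Median depths were 14500 UMIs with MYL2 and 10040 without in E19 HSTS, and 5033 and 7226 UMIs in E19 HS. The mitochondrial share also went with the split in E19 HS, where 44 of the 74 cells with MYL2 and 3 of the 24 without were below 1%. Among cells with at least 1%, NR2F1 was detected in 0 of 30 E19 HS cells with MYL2 and 10 of 21 without, and NR2F2 in 1 of 30 and 7 of 21.

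In E16 HS few cells held MYL2, and 2 of the 3 with at least 3 UMIs of it were below 1% mitochondrial UMIs, against 1 of the 16 without. The 3 cells with at least 3 MYL2 UMIs had MYL2 at 2634 CPM and no UMI of NR2F1 or NR2F2, while among the 16 cells without MYL2 NR2F1 was detected in 10 and NR2F2 in 13. MYH6 was at 1028 CPM in the former and at 5485 CPM in the latter. BMP4, a secreted growth factor of the inflow region and many other mesodermal tissues, was detected in 10 of the 16 cells and 0 of the 3, in 7 of 24 and 0 of 74 E19 HS cells, and in 3 of 24 and 1 of 50 E19 HSTS cells.

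**Figure D3:**
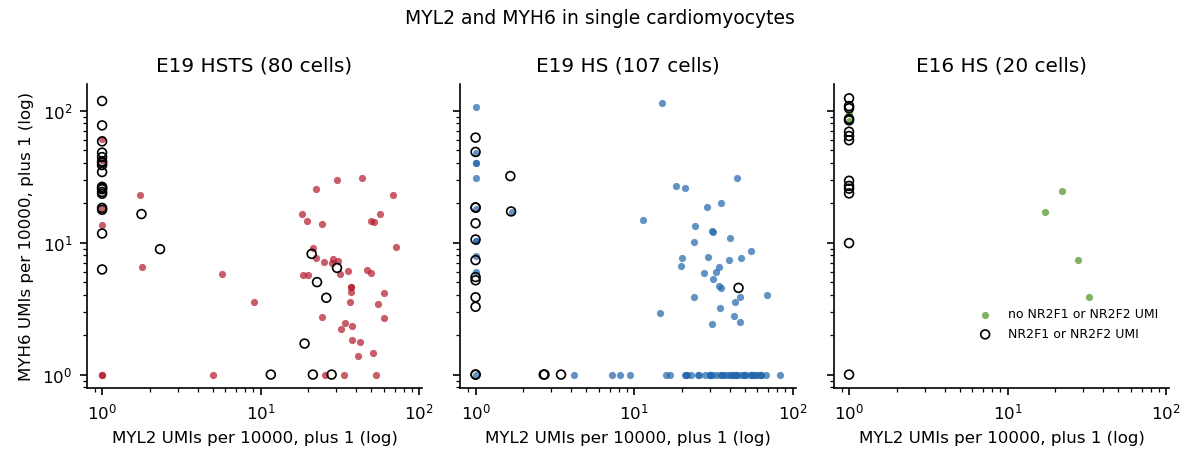
MYL2 (horizontal) against MYH6 (vertical) in single cardiomyocytes, as UMIs per 10000 plus 1 on log axes, a panel per library, with open circles for cells holding a UMI of NR2F1 or NR2F2. Open circles gather at no MYL2 in each library, and 16 of 20 E16 HS cells lie there.

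In E19 HS the low-mitochondrial cells were mostly of the MYL2 kind: 44 of the 50 had at least 3 MYL2 UMIs, and of the 24 cells without MYL2 only 3 were low. Their summed MYL2 level was 3791 CPM against 1876 in the other E19 HS cardiomyocytes, and ACTC1 13870 against 10220. MYL7 was at 18330 against 10350 CPM, but the rule's 3 UMIs are a larger share of a shallow cell, so its level describes the choice. MYH7 stood at 1760 against 4697 CPM in the low cells, MYH6 at 289 against 1474 and RYR2 at 29.5 against 180 CPM. In the 6 such cells of E19 HSTS, MYH7 was likewise lower at 1547 against 4397 CPM. MYL2 there, from 14 UMIs, went opposite to E19 HS at 1203 against 2446 CPM. ACTC1 at 8510 CPM (6920 to 10400) was not told apart from the 9620 CPM of the others. In the 3 of E16 HS, MYH7 stood at 1701 against 559 CPM, from 24 UMIs of which 1 cell held 23. MYH6 stood at 425 against 5462 CPM. These cells had shallow libraries as well, and what set them apart was not tested.

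The comparison of E16 HS with E19 HS asks how Hu sheep heart muscle differed between the days. Genes were compared when the higher sum held at least 50 UMIs, and called past 2-fold. Of 873 genes 43 were higher at day 16 (4.93%) and 116 lower (13.3%), with a median log2 ratio of -0.22 over all of them. The filter asks for a higher level in the shallower E16 HS sum. Asked for a level worth 50 UMIs in the smaller sum, 432 genes were compared, of which 43 were higher (9.95%) and 37 lower (8.56%), with a median of 0.01. Under TMM scaling, which assumes that most genes are level, 13 of 1293 genes were higher and 362 lower, with a median log2 ratio of -0.66, so ratios are to be read against these medians.

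Ventricular genes were lower at day 16. MYL2 was at 0.137 of its E19 HS level (0.0988 to 0.185), MYH7 at 0.164 (0.132 to 0.201) and MYL3 at 0.344 (0.31 to 0.381), and these were the 3 genes compared of 6 in the ventricular list, with a median log2 ratio of -2.61. MYH6 was 3.99-fold higher (3.62 to 4.40), and 3.74-fold without the E16 HS cell holding most of it. Of the 7 thick filament genes compared 4 were past 2-fold lower, the rule gene MYL7 among them, and 1 higher. Of the 8 Z-disc genes compared 4 were lower, among them CRYAB at 0.152 (0.0802 to 0.262) and CSRP3 at 0.455 (0.308 to 0.653). Of the 10 thin filament genes compared 2 were lower, TNNI3 at 0.331 (0.264 to 0.411) and skeletal actin ACTA1 at 0.492 (0.23 to 0.935), and 1 higher, the tropomyosin gene TPM2 at 2.20 (1.84 to 2.63). TNNT2 stood at 1.15 (1.03 to 1.28) and MYL4 at 0.666 (0.621 to 0.715).

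The share of cells with MYL2 differed between the days, so the 16 E16 HS and 24 E19 HS cells without MYL2 were also set side by side. Among them MYH6 was 2.21-fold higher at day 16 (1.96 to 2.50), MYL3 was at 0.479 (0.413 to 0.555) and MYL7 at 0.436 (0.388 to 0.488). MYH7, of which 3 cells held 42 of 50 UMIs in E16 HS and 54 of 84 in E19 HS, stood at 0.898 (0.62 to 1.29), ACTC1 at 1.02 (0.923 to 1.13), HAND2 at 0.989 (0.524 to 1.82) and TNNI3 at 0.720 (0.507 to 1.01). NR2F2 was 3.87-fold higher (2.12 to 7.38) and NR2F1 stood at 1.46 (0.845 to 2.52). TPM2 stood at 1.17 (0.945 to 1.45), CSRP3 at 1.38 (0.827 to 2.29) and CRYAB at 0.440 (0.160 to 1.05). The MYH7, TNNI3, TPM2, CSRP3 and CRYAB intervals within these cells included 1, unlike those over all cardiomyocytes. MYH6 and MYL3 differed in the same direction in both. MYL7 chose the cells, and its ratio is a description.

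Metabolic genes gave counts to be read beside the 13.3% lower and 4.93% higher over all genes compared. Of 33 oxidative phosphorylation genes compared 6 were past 2-fold lower and none higher, with a median log2 ratio of -0.65 against -0.22 over all genes, the 6 including the complex I gene NDUFB2 at 0.457 and the complex III gene UQCRH at 0.484. Of 3 genes of muscle energy buffering 2 were lower, COX6A2 at 0.214 (0.136 to 0.320) and COX7A1 at 0.353 (0.195 to 0.594). Of 11 glycolysis genes 1 was past 2-fold, the glucose transporter gene SLC2A3 at 2.07 (1.59 to 2.66). The cyclin D1 gene CCND1 was at 0.301 and the replication gene MCM5 at 0.488, 2 of the 5 cell cycle genes compared, the latter from 5 UMIs in E16 HS.

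Among the 10 largest ratios in the other direction were ID2, ADAMTS1 and SYNE2. ID2, a target of BMP signals, was 3.64-fold higher at day 16 (2.58 to 5.09), where the other cells gave 0.631. Among the cardiomyocytes without MYL2, ID2 was 1.63-fold higher (1.09 to 2.44). ADAMTS1, a matrix protease of the forming heart wall, was 9.40-fold higher (5.99 to 14.9), against 1.87 in the other cells, and SYNE2, a linker of nucleus and cytoskeleton, 5.13-fold (3.87 to 6.79), against 1.30. Without the E16 HS cell with the most SYNE2 UMIs, SYNE2 was 3.94-fold higher (2.87 to 5.38). BAMBI, outside the 10, was 2.71-fold higher (2.19 to 3.33), and 2.10-fold in the other cells. TGFB2 and BMP4 were not compared under the filter and stood at 266 and 122 CPM in E16 HS against 65.4 and 18.7 CPM in E19 HS. Among the cells without MYL2 the differences were smaller. There TGFB2 stood at 1.14 (0.723 to 1.78), BMP4 at 1.71 (0.803 to 3.68) and BAMBI at 1.52 (1.16 to 1.99).

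The fibrillar collagens had the 3 highest ratios, and most of their E16 HS UMIs came from 1 cell for each gene. COL1A1 was 33.8-fold higher at day 16 (17.1 to 74.4), COL3A1 11.7-fold (8.32 to 16.7) and COL1A2 9.66-fold (6.21 to 15.2), the 3 genes compared of the mesenchyme list, and the other cells gave 7.39-, 3.01- and 4.03-fold. The E16 HS cell with the most UMIs of the gene held 87.3% of COL1A1, 68.3% of COL3A1 and 67.3% of COL1A2, and without that cell the ratios were 5.08 (1.64 to 14.8), 4.38 (2.74 to 6.93) and 3.73 (1.99 to 6.77). Mesenchyme genes summed to 3718 CPM in the 7 E16 HS cardiomyocytes with the lowest contractile share, 831 CPM in the middle 7 and 380 CPM in the highest 6. RRBP1 (4.94-fold), APOE (3.59-fold) and COL4A1 (3.53-fold) completed the list of the 10 largest, and the other cells gave 1.77-, 1.52- and 2.07-fold. Without the E16 HS cell with the most UMIs of the gene, they were 3.17-, 2.98- and 3.33-fold higher.

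Among the lowest ratios were genes of few cells. SERPINA1, AHSG and APOA2, which liver and yolk sac endoderm secrete, had 420, 253 and 152 UMIs in E19 HS cardiomyocytes, of which 98.8%, 98.4% and 97.4% came from a single cell each, and without that cell 5, 4 and 4 UMIs were left. SERPINA1 and APOA2 had no UMI in E16 HS, at least 22.8-fold and 8.24-fold lower with a floor of 3 counts per library, and AHSG had 2. FOS, an immediate early gene that dissociation induces, had 89 UMIs in 22 E19 HS cells and none in E16 HS, at least 4.83-fold lower, and JUN was at 0.329. FOS in the other cells stood at 115 CPM in E19 HS and 3.48 CPM in E16 HS. The metallothionein gene MT3 (82 against 1 UMI, ratio 0.0750, 0.00188 to 0.430), SMIM19 (68 against 1, 0.0904, 0.00226 to 0.521) and the outer mitochondrial membrane protein gene TSPO (90 against 2, 0.137, 0.0163 to 0.508) had too few UMIs at day 16 for a narrow interval.

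**Figure D4:**
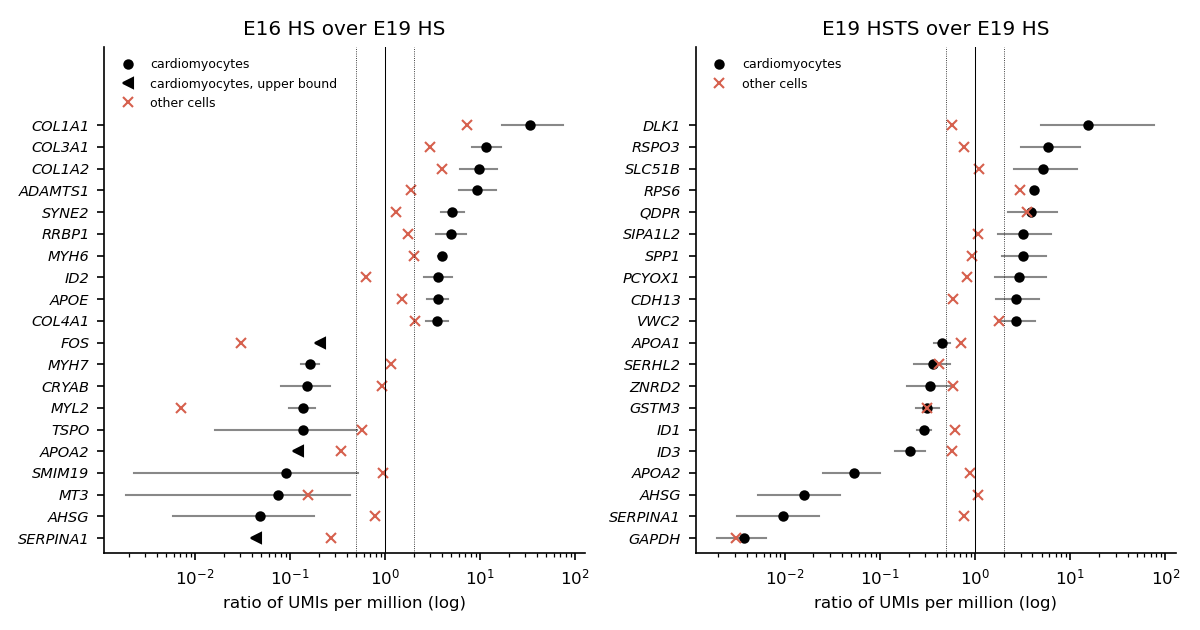
Ratios of CPM (log axes) for the 10 largest in each direction, E16 HS over E19 HS (left) and E19 HSTS over E19 HS (right), in cardiomyocytes (black points with 95% counting intervals, triangles where a library had no UMI) and in the other kept cells (crosses), with dotted lines at 2-fold. MYH6 lies at 3.99 on the left, and GAPDH at 0.00369 on the right with the other cells at 0.00308.

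The comparison of E19 HSTS with E19 HS asks whether heart muscle differed between the short-tailed and the Hu sheep embryo of the same day. Of 1897 genes compared 43 were past 2-fold higher in E19 HSTS (2.27%) and 20 lower (1.05%), with a median log2 ratio of 0.05. With a level worth 50 UMIs in the smaller sum, 30 of 1714 were higher (1.75%) and 20 lower (1.17%). None of the 8 thick filament, 11 thin filament and 11 Z-disc genes compared, rule genes included, was past 2-fold, with median log2 ratios of 0.08, 0.00 and 0.02. MYH6 stood at 1.05 (0.971 to 1.14), MYH7 at 1.06 (1.01 to 1.11), MYL2 at 1.08 (1.02 to 1.15), MYL3 at 0.830 (0.803 to 0.858) and CRYAB at 0.649 (0.570 to 0.739). None of the 34 oxidative phosphorylation genes and none of the 7 cell cycle genes was past 2-fold.

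Within the cells without MYL2 the libraries differed more. Among the 24 cells without MYL2 in each library, MYH7 was at 0.113 of the E19 HS level in E19 HSTS (0.0563 to 0.208), from 12 UMIs in 7 cells and 84 in 11 cells, of which 3 cells held 54, MYL3 at 0.462 (0.409 to 0.520) and MYH6 at 1.44 (1.28 to 1.61). MYL7, a rule gene, stood at 2.15 (2.01 to 2.29) there, CSRP3 at 4.62 (3.22 to 6.82) and TNNC1 at 1.05 (0.967 to 1.15). MYH6 was detected in 88.8% of E19 HSTS and 54.2% of E19 HS cardiomyocytes, and in 82.4% and 54.7% after thinning, at 1305 and 1240 CPM. Among cells with at least 1% mitochondrial UMIs it was detected in 68 of 74 and 46 of 57, and among those below 1% in 3 of 6 and 12 of 50, so the shares moved with the number of low cells, whose part in the difference was not tested.

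Of the inhibitor of DNA binding genes, which BMP signals induce, ID1 and ID3 were lower in E19 HSTS and ID2 was higher. ID1 had 188 and 529 UMIs, at 0.289 of the E19 HS level (0.244 to 0.342), and ID3 had 40 and 157 UMIs, at 0.208 (0.143 to 0.295). In the other cells the ratios were 0.610 and 0.565. Without the E19 HS cell holding most of each, ID1 was at 0.328 and ID3 at 0.229, so no single cell carried them. In E16 HS, ID1 and ID3 stood at 639 and 280 CPM, against 618 and 183 CPM in E19 HS and 179 and 38.0 CPM in E19 HSTS. In E16 HS 1 cell held much of ID1, and without it ID1 stood at 372 CPM, 0.602 of E19 HS (0.440 to 0.808) in place of 1.03. Among the cells without MYL2, E16 HS stood at 0.403 of E19 HS for ID1 (0.314 to 0.512) and 0.689 for ID3 (0.454 to 1.03). In E19 HSTS over E19 HS, ID2 stood at 1.52 (1.18 to 1.96). For the same 2 libraries and the cells without MYL2, ID1 was at 0.221 (0.173 to 0.280) and ID3 at 0.176 (0.0995 to 0.296). BMP4, from 4 and 15 UMIs, was at 0.211 there (0.0511 to 0.664). Of the 10 genes in the BMP list 3 were compared, and of these ID1 and ID3 were past 2-fold lower and ID2 was not past 2-fold. Over all genes compared 20 of 1897 were lower (1.05%), and the list was chosen with earlier results of these data known.

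Genes higher in E19 HSTS were mostly of low count. RSPO3, a secreted enhancer of WNT signals, had 72 UMIs in 11 E19 HSTS cells and 10 in 5 E19 HS cells, 5.86-fold higher (3.01 to 12.7), and 3.87-fold (1.93 to 8.58) without the E19 HSTS cell holding 25 of its UMIs. The other cells gave 0.771. DLK1, an imprinted membrane protein gene, had 56 UMIs in 6 cells and 3 in 1 cell, 15.2-fold higher (4.94 to 75.9), with 60.7% of its E19 HSTS UMIs in 1 cell, and without it the ratio was 6.05 (1.82 to 31.6). SLC51B, a subunit of a steroid and bile acid transporter, was more widely held, in 30 of 80 E19 HSTS and 9 of 107 E19 HS cardiomyocytes, 5.16-fold higher (2.54 to 11.9), and was nearly absent from the other cells at 0.102 and 0.0910 CPM. The atypical cadherin CDH13 was in 41 and 16 cells, 2.71-fold higher (1.65 to 4.66), and the secreted BMP antagonist gene VWC2 in 41 and 19 cells, 2.71-fold (1.76 to 4.29). Both had no UMI in the E16 HS cardiomyocytes. IGFBP5, an insulin-like growth factor binding protein gene, was 2.59-fold higher, at 172 and 66.5 CPM.

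Several of the largest ratios had the same direction past 2-fold in the other cells. GAPDH was at 0.00369 of the E19 HS level (0.00196 to 0.00632) in cardiomyocytes and 0.00308 in the other cells, GSTM3 at 0.316 and 0.315, QDPR at 3.86 and 3.54, RPS6 at 4.2 and 2.94, and SERHL2 at 0.357 and 0.417. SIPA1L2 (3.2 against 1.07), SPP1 (3.17 against 0.923) and PCYOX1 (2.88 against 0.822) were past 2-fold in the cardiomyocytes and not in the other cells, and the difference between cardiomyocytes and other cells was not tested. SERPINA1, AHSG and APOA2 were again low against E19 HS, at 0.00970, 0.0161 and 0.0536, and without the single E19 HS cell that held most of each the ratios were 0.797 (0.183 to 3.46), 0.996 (0.214 to 5.02) and 1.99 (0.574 to 8.70). ZNRD2 at 0.335 and APOA1 at 0.451 completed the lower list, and stood at 0.582 and 0.705 in the other cells.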

How the data were processed

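Whole sheep embryos were dissociated and sequenced as 3 single-cell libraries, 1 per group. According to the study and the submitters' processing notes, the authors aligned the reads with Cell Ranger 6.1.2 to the sheep reference Ovis_aries_genome_v1.0 and deposited raw UMI counts per gene and barcode, with 26478 genes of which 16670 carry a symbol; their filtering and clustering in Seurat 4.1.1 came later and is not in these counts. No cell labels were used, and doublets were not removed here beyond the depth limit. Cells were kept by genes (200 to 6000), UMIs (1000 to 30000) and mitochondrial share (at most 10%, from 11 genes with MT- symbols), and cardiomyocytes taken at MYL7 of at least 3 and TNNT2 of at least 2 UMIs. Members and gene lists were chosen with earlier results of these data known.

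UMIs were summed over the cells of a library, divided by their total and compared as ratios with exact conditional 95% Poisson intervals; with 1 library per group there is no test. Named were list genes, the 10 largest ratios in each direction of each comparison (genes whose higher sum reached 50 UMIs) and the 20 highest over the other cells (genes reaching 50 UMIs in the cardiomyocytes of every library), all with a symbol. A sum of 0 was set to 3 counts. Detection shares have exact Clopper-Pearson intervals and were repeated after thinning cells to 3000 UMIs, which left out 6, 32 and 4 cardiomyocytes and 1106, 1345 and 1317 kept cells. Erythroid cells held at least 3 AHSP and 2 BLVRB UMIs. Of 396 list entries, 41 had no row under their symbol. The scripts were tested on simulated counts. Sums were scaled by TMM (edgeR 4.0.16, R 4.3.3) as an alternative; the rest was computed in pandas 2.3.3, scipy 1.17.1 and numpy 2.4.6 under Python 3.11.15. No genome of the files' build was used here, so no sequences or coordinates are given.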

Additional observations from a re-analysis of the deposited data

Results flagged for a closer look

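REC114, a gene named for meiotic recombination, moved in opposite directions between the days in cardiomyocytes and in the other cells. Its log2 ratio of E16 HS over E19 HS was -1.20 in the cardiomyocytes, from 6 and 85 UMIs (43.1 and 99.2 CPM, ratio interval 0.155 to 0.984), and 1.29 in the other cells (10.1 and 4.14 CPM). The difference between them was not tested. REC114 was detected in 50 of 80, 38 of 107 and 5 of 20 cardiomyocytes, libraries in the order used above.

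Barcodes outside the cell filter also passed the MYL7 and TNNT2 rule, 22, 26 and 5 in the same order of libraries. Of these 13, 12 and 1 had under 1000 UMIs, 6, 3 and 2 had over 30000 UMIs, and 3, 12 and 2 had over 10% mitochondrial UMIs.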

How the results depend on the processing

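No paired analysis was possible because each group was 1 library. The share of cardiomyocytes was 0.323% in E19 HSTS and 0.722% in E19 HS when 500 genes and a mitochondrial share under 5% were required, which kept 27, 67 and 13 cardiomyocytes. It was 0.753% in E19 HS and 0.0971% in E16 HS at 10 MYL7 and 5 TNNT2 UMIs. In E19 HS it was 0.700% after thinning and 0.603% among cells with at least 1% mitochondrial UMIs, an alternative chosen after seeing the data. For E19 HSTS over E19 HS the counts higher and lower were 14 and 8 after thinning, 11 and 13 at 100 UMIs and 171 and 55 at 20 UMIs. There were 13 lower without members holding another type's markers, and 132 higher with every cell weighted equally (chosen after seeing the data). For E16 HS over E19 HS they were 14 and 48 after thinning, 16 and 72 at 100 UMIs, 164 and 228 at 20 UMIs and 13 and 362 under TMM. The higher count was 89 over all deposited barcodes, 74 at 1 UMI of each rule gene and 28 under the stricter rule. The lower count was 62 under the stricter filter and 37 with 50 UMIs in the smaller sum (chosen after seeing the data). Against the other cells in every library the counts were 17 and 6 after thinning, 19 and 7 at 100 UMIs, 68 and 23 at 20 UMIs and 229 and 74 without the E16 HS library, and 20 were lower under TMM. Without members holding another type's markers, log2 ratios reversed to 1.66 for APOA2 in E19 HSTS over E19 HS, and to 3.05 for APOA2, 1.46 for AHSG and 2.05 for SERPINA1 in E16 HS over E19 HS, genes whose E19 HS UMIs came mostly from 1 cell. After thinning HSPB7 and MCM5 both reversed to 0.24 for E16 HS over E19 HS. The cause was not tested except for the fewer genes or cells that an alternative holds. E16 HS, at 139330 UMIs, limits every comparison by day. Over 10 alternatives the log2 ratio of E16 HS over E19 HS lay between 1.34 and 2.54 for MYH6, between -4.42 and -2.17 for MYL2, between -3.26 and -1.29 for MYH7 and between 1.75 and 3.78 for COL3A1. For E19 HSTS over E19 HS it lay between -2.02 and -1.40 for ID1, between -2.57 and -1.61 for ID3, between 1.29 and 3.73 for RSPO3 and between 1.42 and 2.74 for SLC51B.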
